A study of Mus musculus with 8 samples.

Results

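The genes described here are those of the mitochondrial respiratory chain, taken by name from the mouse array. Every non-control probe whose gene name begins with Nduf, Uqcr, Cox4, Cox5, Cox6, Cox7, Cox8 or Atp5, or is Sdha, Sdhb, Sdhc or Sdhd, was a member. The rule took 136 of 55681 non-control probes, for 93 genes. Of these, 81 encode subunits, 8 encode assembly factors (Ndufaf1 to Ndufaf7 and Atp5sl), and the remaining 4 are other names that the rule takes (Ndufa4l2, Cox7a2l, Atp5s and the pseudogene Atp5c1-ps). The rule used no measured value. After the filter on dim probes 91 of the 93 genes were tested, among 27109 genes in all. Cox7b2 and Cox8c, which are testis isoforms, were not well above background on any of the 8 arrays and were not tested.

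The samples were cultured satellite cells, the stem cells of skeletal muscle, sorted from the hindlimbs of C57BL/6J mice, 3 to 4 months old. After a night in culture they received a lentivirus that integrates into the genome and drives overexpression of Hoxa9 with eGFP (Hoxa9 group, n = 4) or of eGFP alone (eGFP group, n = 4). Cells positive for eGFP were sorted 5 days after transduction and their RNA was hybridised to 1-colour Agilent 8x60K arrays, so both groups carried an integrated lentivirus and eGFP. Hoxa9 is a homeodomain transcription factor. The promoter of the vector and the number of animals behind each sample are not given in the sources used here. Nothing states that replicates were separate cultures or animals, and the spread behind the p-values may therefore be technical.

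The respiratory chain sits in the inner mitochondrial membrane. Complexes I and II take electrons from NADH and succinate and pass them to ubiquinone, complex III passes them on to cytochrome c, and complex IV, cytochrome c oxidase, passes them to oxygen. Complexes I, III and IV pump protons, and complex V, the ATP synthase, uses the resulting gradient to make ATP. Most subunits are encoded in the nucleus. Several nuclear subunits of complex IV exist in pairs, with one isoform found in most tissues and another typical of heart and skeletal muscle, and maturing muscle turns to the muscle isoforms.

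Levels are given as log2 signal relative to the array's 75th percentile, and differences are log2 Hoxa9 minus eGFP. On 69.6% to 77.5% of spots the signal was well above background, the 75th percentile of the signal was 514 to 779 units and no spot was saturated. All 91 tested members were well above background on all 8 arrays. Levels of different probes are not comparable, since each probe binds with its own efficiency. The Hoxa9 probe averaged 5.49 ± 0.21 in Hoxa9 cells and -0.49 ± 0.44 in eGFP cells (SD, n = 4 each), a difference of 5.97, which was 2.11 when all Hoxa9 probes were averaged. The satellite cell transcription factor genes Pax7, Myf5 and Myod1 were detected in both groups, and Pax7 and Myf5 were called lower with Hoxa9. The call of Myf5 was lost with replicate number blocked. Of the marker lists of other cells, 8 of 10 immune genes and 6 of 9 endothelial genes also passed the filter on dim probes, while Ptprc, which marks blood cells, and Tek, Tie1 and Emcn, which mark endothelium, did not.

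The results turn on 3 muscle isoforms of complex IV and their ubiquitous partners, so the probes that read them are shown. Each line gives the first 30 of the probe's 60 bases as the scanner files hold them, with mm9 positions of the whole probe in the text that follows.
Cox6a2: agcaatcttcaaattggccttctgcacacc
Cox6a1: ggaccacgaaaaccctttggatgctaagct
Cox7a1: acaacgtcctgtacagactgaccatgacgc
Cox7a2: ctttggggatcaatatttattgatgtgtat
Cox8b: ctataaaaagagctccgcagcatgaagttg
Cox8a: tattggctctgcttggtggggtcccccttt
No capitals are used in these lines, since no stretch within them was singled out. The whole probes of Cox6a2 and Cox6a1 share no run longer than 4 bases, and those of Cox7a1 and Cox7a2, and of Cox8b and Cox8a, no run longer than 6 bases. No probe was compared with the transcript of the partner isoform, so binding of a probe to that transcript was not tested. The probes lie at chr7:135349160-135349219 (Cox6a2, minus strand), chr5:115795726-115795785 (Cox6a1, minus strand), chr7:30970337-30970948 (Cox7a1, plus strand, the span covering more than the probe's length), chr9:79603215-79603274 (Cox7a2, minus strand), chr7:148084852-148084911 (Cox8b, minus strand) and chr19:7289652-7289708 (Cox8a, minus strand), all in mm9. No annotation of that build was used, so the exon each probe lies in is not given.

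The windows around the transcription starts of the same genes are shown because the isoforms of a pair differed in their response. They come from RefSeq on GRCm38.p6 and cover 250 bases before to 50 after the start. Cox6a2 is named only. Capitals mark matches to 4 short motifs searched on both strands, namely CANNTG (the E-box, the letters bound by MyoD-family factors), CTA and TAG with 4 bases of any kind between them (MEF2-type), CCGGAAG (Ets core) and GCGCA and GCGC with 1 base of any kind between them (NRF1-type).
Cox7a1, chr7:30183921-30184220, plus strand: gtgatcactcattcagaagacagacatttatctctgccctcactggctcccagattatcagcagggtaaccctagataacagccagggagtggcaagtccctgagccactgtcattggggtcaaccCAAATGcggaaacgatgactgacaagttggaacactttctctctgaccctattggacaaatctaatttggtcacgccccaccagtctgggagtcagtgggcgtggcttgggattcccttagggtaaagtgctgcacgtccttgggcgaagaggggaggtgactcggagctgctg
Cox8b, chr7:140900397-140900696, minus strand: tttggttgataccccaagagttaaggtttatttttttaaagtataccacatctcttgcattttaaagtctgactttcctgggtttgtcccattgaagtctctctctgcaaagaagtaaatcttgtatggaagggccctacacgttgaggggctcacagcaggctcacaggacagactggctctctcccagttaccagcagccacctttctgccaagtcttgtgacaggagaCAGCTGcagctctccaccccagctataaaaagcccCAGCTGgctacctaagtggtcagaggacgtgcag
Cox6a1, chr5:115348909-115349208, minus strand: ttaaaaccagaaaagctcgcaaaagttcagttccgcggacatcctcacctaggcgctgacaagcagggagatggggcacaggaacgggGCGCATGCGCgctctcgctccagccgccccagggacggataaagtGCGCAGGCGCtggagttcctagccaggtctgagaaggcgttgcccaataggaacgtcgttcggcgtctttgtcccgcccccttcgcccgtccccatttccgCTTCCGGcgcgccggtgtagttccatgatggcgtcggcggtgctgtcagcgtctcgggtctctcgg
Cox7a2, chr9:79759804-79760103, minus strand: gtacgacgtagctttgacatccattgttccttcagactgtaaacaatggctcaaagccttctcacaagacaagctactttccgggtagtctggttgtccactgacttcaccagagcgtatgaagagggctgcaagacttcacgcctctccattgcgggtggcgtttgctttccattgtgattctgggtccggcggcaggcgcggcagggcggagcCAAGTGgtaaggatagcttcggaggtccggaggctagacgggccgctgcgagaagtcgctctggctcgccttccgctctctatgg
Cox8a, chr19:7217567-7217866, minus strand: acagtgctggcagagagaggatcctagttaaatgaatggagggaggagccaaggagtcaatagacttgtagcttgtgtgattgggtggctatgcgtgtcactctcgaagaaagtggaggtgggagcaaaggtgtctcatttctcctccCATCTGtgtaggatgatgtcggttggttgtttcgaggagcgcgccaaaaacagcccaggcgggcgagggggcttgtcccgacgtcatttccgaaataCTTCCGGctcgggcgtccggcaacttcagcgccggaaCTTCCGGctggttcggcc
The Cox7a1 window held 1 E-box match and the Cox8b window 2, as against 0 in Cox6a1 and 1 each in Cox7a2 and Cox8a. The Cox6a1 window held 2 NRF1-type matches, 1 Ets core match and 32 CG dinucleotides, whereas Cox7a1 had 7 CG dinucleotides and Cox8b had 2. Among the 66 of 79 tested subunit genes found in the table, 25.8% held an NRF1-type match and 24.2% an Ets core match, compared with 5.19% and 9.93% of 27025 genes. E-box matches were present in 69.7% of subunit genes and 75% of all genes, and MEF2-type matches in 1.52% and 4.23%. With each gene counted by its window richest in CG dinucleotides, the median over genes was 19 in subunit genes and 8 in all genes. A match is a run of letters, not a measured binding site.

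Most respiratory chain genes differed little between the groups. Of 91 members tested, 3 were higher in the Hoxa9 arrays and 0 were lower (limma, Benjamini-Hochberg adjusted p under 0.05 over all genes), which is 3.3% of the members. Over all genes 15.1% were called, 7.71% as higher and 7.41% as lower, so the members' share lies below that of the array as a whole. The 3 genes were Cox7a1 and Cox8b, muscle isoforms of complex IV, and Ndufaf3, an assembly factor of complex I. At an unadjusted p under 0.05 there were 5 members higher and 1 lower of 91, beside 7436 of 27109 genes in either direction. With quantile normalization 14 members were higher and 0 lower at that limit. No array of one group lay within the range of the other for 6 members with higher levels (Cox7a1, Cox8b, Ndufaf3, Ndufa9, Ndufa13 and Ndufb11), against 10.9% of all genes, and for 2 with lower levels (Cox7a2 and Atp5g2), against 12.6% of all genes.

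The median difference over the 91 members was -0.06, beside -0.08 over all genes tested, with quartiles of -0.19 and 0.09. The differences of the members had an SD of 0.39 across genes, as against 0.80 for all genes. Of the members 36 lay above 0 and 55 below it. The side of 0 on which the median lies is not fixed by these data, because it was 0.12 with quantile normalization, where 66 members lay above 0 and 25 below.

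The intervals show how large a change the arrays could have missed. The 95% interval of the difference lay within 2-fold in either direction for 86 members (94.51%), as against 51.51% of all genes, and within 1.5-fold for 54 members (59.34%), as against 18.02%. The probes of the members are bright, and bright probes vary less. The median SE was 0.17 for the members and 0.23 for all genes. Of the 68 members with a mean level of at least 4.29, the members' lower quartile, 0 were called by limma (1 at an unadjusted p under 0.05), whereas among the 2428 other genes at or above that level 82 were higher and 220 lower (12.4%). The interval lay within 2-fold for 100% of those members and for 80.44% of those other genes.

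**Figure D1:**
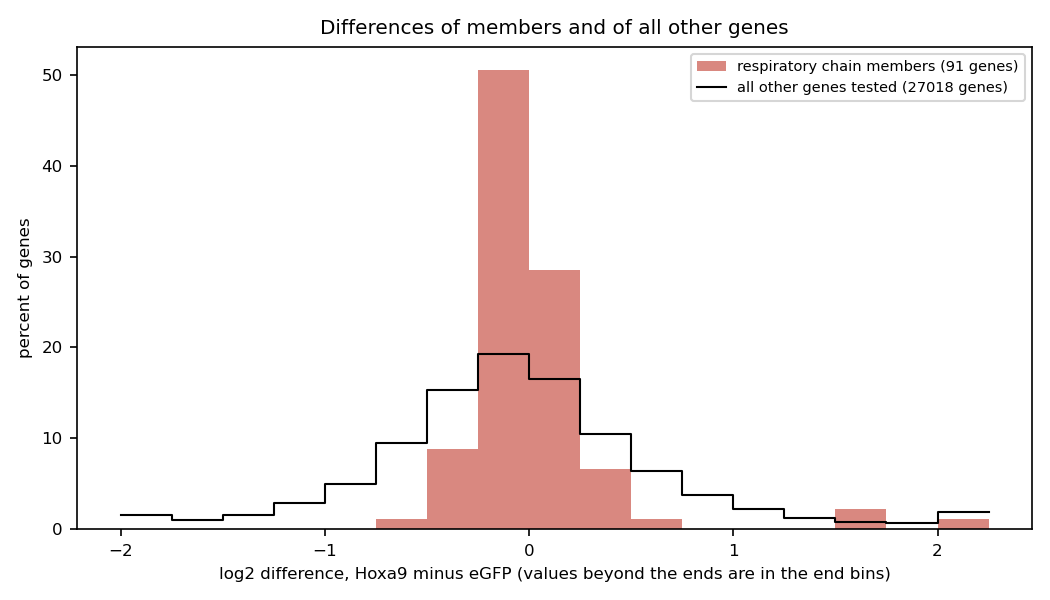
The share of genes (vertical axis, percent) in bins of the log2 difference, Hoxa9 minus eGFP (horizontal axis), for the 91 members (filled bars) and the 27018 other genes (line). Of the members 50.55% lie in the bin just below 0 and 28.57% in the bin just above it, against 19.26% and 16.53% of the other genes.

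The median of the members by array, after centring each gene on its mean over the 8 arrays, was 0.04, 0.03, -0.10 and -0.05 in Hoxa9 replicates 1 to 4, against 0.22, 0.03, -0.15 and -0.05 in eGFP replicates 1 to 4. The groups overlapped, and the highest value was that of eGFP replicate 1. The lowest was that of eGFP replicate 3.

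Complex I, the NADH dehydrogenase, showed no called subunit. All 36 subunit genes were tested, with 0 called (1 at an unadjusted p under 0.05), a median difference of 0.00 and a range of -0.32 to 0.39. Under quantile normalization the median was 0.19, with 9 subunits higher at an unadjusted p under 0.05. The 7 core subunits, which carry the flavin and iron-sulphur centres, had a median of -0.07 (range -0.24 to 0.16), and the 29 accessory subunits one of 0.01. Every one of the 36 intervals lay within 2-fold.

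The accessory subunit gene Ndufa9 had the smallest p of complex I. Its level was 4.18, 4.60, 4.30 and 4.11 in the Hoxa9 arrays, against 4.03, 3.94, 3.75 and 3.92 in the eGFP arrays. All Hoxa9 arrays lay above all eGFP arrays, by a narrow margin. The difference of 0.39 (SE 0.15) did not pass the test (adjusted p = 0.1461, limma), though it did with quantile normalization (0.51, adjusted p = 0.03473), and within the 3 slides it was 0.13, 0.64 and 0.38.

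Ndufb11, another accessory subunit gene, read 6.22, 6.10, 6.24 and 6.47 in the Hoxa9 arrays, against 6.07, 5.93, 6.01 and 5.88 in the eGFP arrays. The groups did not overlap, and the difference of 0.29 did not pass the test (adjusted p = 0.2211), except after normexp background correction (0.40, adjusted p = 0.0393). Ndufv3, an accessory subunit gene of the NADH-binding module, read 5.75, 6.15, 5.84 and 6.20 in the Hoxa9 arrays, against 5.53, 5.45, 5.61 and 5.93 in the eGFP arrays. Here eGFP replicate 4 lay above Hoxa9 replicates 1 and 3, and the difference was 0.35 (adjusted p = 0.233).

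The assembly factor Ndufaf3, which acts in the building of complex I and is no part of the finished enzyme, rose 1.65-fold. Its level was 0.99, 0.76, 0.83 and 0.94 in the Hoxa9 arrays, against 0.50, 0.31, -0.21 and 0.04 in the eGFP arrays. The groups did not overlap, and the eGFP arrays were the more spread. The difference was 0.72 (SE 0.18, adjusted p = 0.02954, limma), and within the 3 slides it was 0.54, 1.09 and 0.79. This call was the weakest of the 3. It was lost with a median shift in place of the 75th percentile (adjusted p = 0.104) and on leaving out Hoxa9 replicate 1, 3 or 4 or eGFP replicate 2, 3 or 4 (adjusted p 0.0574 to 0.08298). None of the other 7 assembly factors was called, their differences lying between -0.33 and 0.19.

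Complex II, the succinate dehydrogenase, is the smallest of the complexes and also an enzyme of the citric acid cycle. Of its 4 genes 0 were called by limma and 0 had an unadjusted p under 0.05, with a median of -0.16. The flavoprotein gene Sdha read 4.93, 4.92, 4.71 and 4.75 in the Hoxa9 arrays, against 4.88, 4.74, 4.60 and 5.02 in the eGFP arrays, a difference of 0.02 (95% interval -0.31 to 0.35). The groups overlapped throughout.

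The iron-sulphur subunit gene Sdhb read 6.20, 6.52, 6.26 and 5.97 in the Hoxa9 arrays, against 6.49, 6.42, 6.42 and 6.60 in the eGFP arrays. Its difference of -0.24 (95% interval -0.59 to 0.11) was the farthest from 0 in the complex. The membrane anchor gene Sdhc read 4.56, 4.06, 3.88 and 4.18 in the Hoxa9 arrays, against 4.75, 4.52, 4.22 and 3.98 in the eGFP arrays (difference -0.19). The other anchor gene, Sdhd, read 5.93, 5.87, 5.90 and 5.40 in the Hoxa9 arrays, against 6.14, 5.90, 5.68 and 5.86 in the eGFP arrays (difference -0.12). In both, the groups overlapped, and Hoxa9 replicate 4 was the lowest array for Sdhd.

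Complex III, the cytochrome bc1 complex, had 8 genes tested, 0 of them called by limma or at an unadjusted p under 0.05. Their median was -0.09 (range -0.33 to 0.05), and 0.11 with quantile normalization. The core protein gene Uqcrc1 had the lowest p. It read 4.50, 4.23, 4.00 and 3.82 in the Hoxa9 arrays, against 4.98, 4.50, 4.16 and 4.23 in the eGFP arrays, a difference of -0.33 (SE 0.23, adjusted p = 0.406). The groups overlapped, with eGFP replicate 1 the highest array. Differences were -0.16 for the small subunit gene Uqcr11 and -0.10 for Uqcr10.

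Complex IV held the only called subunits. Of its 16 tested subunit genes (with Ndufa4, once assigned to complex I, counted here), 2 were higher and 0 lower. That is 12.5%, against 15.1% of all genes, and the range was -0.30 to 2.08. The 13 genes other than Cox6a2, Cox7a1 and Cox8b had 0 called (limma; 0 at an unadjusted p under 0.05), a range of -0.30 to 0.33 and a median of -0.09.

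Cox7a1, the heart and muscle isoform of subunit VIIa, rose 2.99-fold. It read 3.60, 3.38, 3.30 and 3.94 in the Hoxa9 arrays, against 1.81, 1.86, 1.90 and 2.33 in the eGFP arrays. Every Hoxa9 array lay above every eGFP array. The difference was 1.58 (SE 0.19, 95% interval 1.13 to 2.03, adjusted p = 0.001159, limma), and within the 3 slides it was 2.10, 1.59 and 0.97.

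Cox8b, the heart and muscle isoform of subunit VIII in the mouse, rose 4.23-fold. Its level was 4.42, 4.47, 4.65 and 5.14 in the Hoxa9 arrays, against 1.92, 2.10, 3.14 and 3.19 in the eGFP arrays. The groups did not overlap, and eGFP replicates 3 and 4 lay above eGFP replicates 1 and 2. The difference was 2.08 (SE 0.34, 95% interval 1.31 to 2.85, adjusted p = 0.004279), and within slides it was 3.13, 1.30 and 1.46.

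Cox6a2, the heart and muscle isoform of subunit VIa, did not pass the test although its difference was of like size. It read 3.50, 3.68, 4.94 and 5.45 in the Hoxa9 arrays, against 1.73, 1.49, 3.23 and 4.12 in the eGFP arrays. Replicates 3 and 4 were high and replicates 1 and 2 low in both groups, and eGFP replicate 4 lay above Hoxa9 replicates 1 and 2. The difference was 1.75 (SE 0.68, 95% interval 0.20 to 3.30, adjusted p = 0.1342). When replicate number was blocked it passed (adjusted p = 0.005329), the Hoxa9 array being higher in 4 of 4 same-numbered pairs, by 1.77, 2.20, 1.71 and 1.32. Within slides, which mix the numbers, the difference was 3.84, 0.36 and 0.81.

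The ubiquitous partners of these 3 isoforms did not pass the test, and their differences lay below 0. Cox6a1 read 8.64, 8.34, 8.33 and 8.33 in the Hoxa9 arrays, against 8.73, 8.62, 8.22 and 8.44 in the eGFP arrays (difference -0.09, 95% interval -0.46 to 0.28). Cox7a2 read 5.72, 5.84, 5.58 and 5.61 in the Hoxa9 arrays, against 5.97, 5.87, 5.91 and 6.21 in the eGFP arrays (difference -0.30, 95% interval -0.63 to 0.02, adjusted p = 0.2073). Its groups did not overlap, the Hoxa9 arrays being lower. Cox8a read 7.90, 8.02, 7.61 and 7.65 in the Hoxa9 arrays, against 8.03, 7.66, 7.89 and 8.28 in the eGFP arrays (difference -0.17, 95% interval -0.58 to 0.24), with overlap. Under quantile normalization the differences of Cox6a1 and Cox8a were 0.05 and 0.09, so their sign depends on the scaling, whereas that of Cox7a2 stayed below 0.

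**Figure D2:**
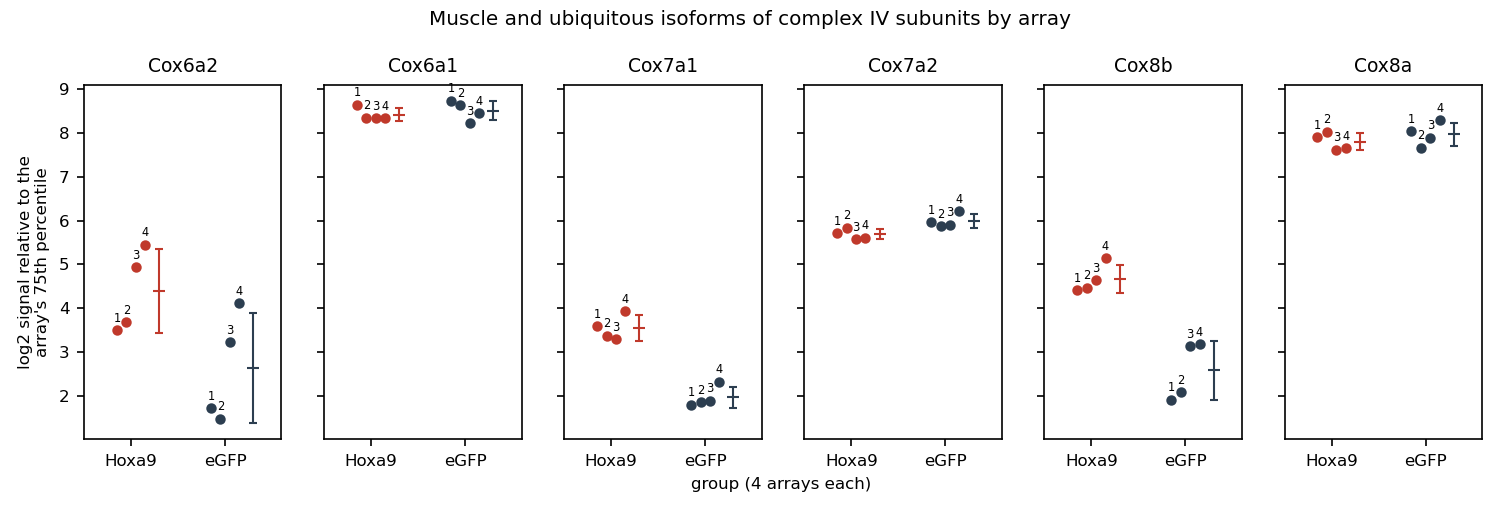
Log2 signal relative to the array's 75th percentile (vertical axis) of 3 muscle isoforms and their partners in the 4 Hoxa9 and the 4 eGFP arrays. Points are arrays, numbered by replicate, and bars give the mean ± SD. Levels are to be compared within a panel, where the groups are apart for Cox7a1 (1.58) and Cox8b (2.08) and overlap for Cox6a2, Cox6a1 and Cox8a.

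Because both isoforms of a pair were read on the same array, a constant shift between arrays does not alter their log2 ratio. For Cox7a1 over Cox7a2 the ratio averaged -2.13 ± 0.34 in Hoxa9 cells and -4.02 ± 0.11 in eGFP cells (SD, n = 4 each). For Cox8b over Cox8a it averaged -3.12 ± 0.49 in Hoxa9 cells and -5.37 ± 0.59 in eGFP cells. These changes of 1.88 and 2.25 had no overlap between groups, and each reached p = 0.02857 in a two-sided exact permutation test, the smallest p that the 70 splits of 4 against 4 arrays allow, which became 0.1143 after Benjamini-Hochberg adjustment over the 8 pairs examined. No pair could pass 0.05 in that adjustment unless several reached the smallest p. For Cox6a2 over Cox6a1 the change was 1.84 (exact permutation p = 0.1429, adjusted 0.3428), with overlap, and the 4 same-numbered pairs changed by 1.86, 2.47, 1.59 and 1.44. Within same-numbered pairs, the ratio was higher with Hoxa9 in 4 of 4 for each of these 3 isoforms, at p = 0.125 in an exact test of sign flips, the smallest p that 4 pairs allow. Quantile normalization, which is not a constant shift, gave changes of 1.77 for Cox7a1, 2.10 for Cox8b and 1.79 for Cox6a2. A change of ratio shows that the isoforms changed unequally and not which one moved.

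The other pairs changed less. Cox4i2, the isoform of subunit IV known from lung, read -0.71, 0.16, -0.88 and -0.37 in the Hoxa9 arrays, against -0.84, -0.68, -0.98 and -0.63 in the eGFP arrays. Its groups overlapped, with Hoxa9 replicate 2 the highest array, and the difference of 0.33 had an interval of -0.21 to 0.87. Its ubiquitous partner Cox4i1 read 7.17, 7.37, 7.20 and 6.90 in the Hoxa9 arrays, against 7.58, 7.42, 7.09 and 7.12 in the eGFP arrays (difference -0.14). The ratio of the pair changed by 0.47 (exact permutation p = 0.1714).

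Cox6b2, the testis isoform of subunit VIb, read 0.43, 0.67, 0.81 and 1.48 in the Hoxa9 arrays, against 0.15, 0.50, 0.78 and 0.86 in the eGFP arrays (difference 0.28). The Cox6b1 values were 3.83, 4.25, 3.76 and 3.73 in the Hoxa9 arrays, against 4.44, 4.17, 3.77 and 3.88 in the eGFP arrays (difference -0.17). Both overlapped, and the change of ratio was 0.45 (exact permutation p = 0.3143). Cox7b, whose testis counterpart was not tested, read 6.33, 6.22, 6.27 and 6.55 in the Hoxa9 arrays, against 6.64, 6.51, 6.32 and 6.57 in the eGFP arrays (difference -0.17).

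Ndufa4l2 encodes a relative of Ndufa4 that is known to be induced by hypoxia. It read -1.69, -2.23, -2.83 and -1.70 in the Hoxa9 arrays, against -1.66, -2.24, -2.32 and -0.17 in the eGFP arrays. Its difference of -0.52 rests largely on eGFP replicate 4 and is ill determined (95% interval -1.65 to 0.62). Without eGFP replicate 4 the difference was -0.04, and its highest adjusted p over the alternatives was 0.9525. Ndufa4 itself read 5.94, 5.83, 5.76 and 5.87 in the Hoxa9 arrays, against 5.91, 5.70, 5.62 and 5.79 in the eGFP arrays (difference 0.10, 95% interval -0.20 to 0.39).

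Complex V, the ATP synthase, showed no called subunit among 15 tested (1 at an unadjusted p under 0.05). The median was -0.09 (range -0.44 to 0.07), and 0.10 with quantile normalization. The 5 subunits of the catalytic F1 head had a median of -0.01, and the 10 of the membrane part and the stalk one of -0.14. All 15 intervals lay within 2-fold.

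The 3 genes of lowest p in complex V all had differences below 0. Atp5g2, one of 3 genes for the same proton-conducting ring protein, read 7.21, 7.39, 7.35 and 7.09 in the Hoxa9 arrays, against 7.68, 7.62, 7.45 and 7.76 in the eGFP arrays. The groups did not overlap, and the difference of -0.37 (SE 0.14, adjusted p = 0.1253) passed the test only after normexp background correction (-0.55, adjusted p = 0.03464), its adjusted p otherwise reaching up to 0.4706. Atp5f1, for the peripheral stalk subunit b, read 5.03, 4.67, 4.69 and 4.72 in the Hoxa9 arrays, against 5.55, 5.27, 4.89 and 4.93 in the eGFP arrays (difference -0.38, adjusted p = 0.2405). Atp5c1, for the gamma subunit that turns in the head, read 5.16, 5.59, 4.91 and 4.75 in the Hoxa9 arrays, against 5.91, 5.64, 5.26 and 5.37 in the eGFP arrays (difference -0.44, adjusted p = 0.2603). Both overlapped.

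Within the ring protein family, Atp5g1 read 6.66, 7.01, 6.61 and 6.41 in the Hoxa9 arrays, against 7.24, 6.78, 6.72 and 6.74 in the eGFP arrays (difference -0.20). Atp5g3 read 7.43, 7.80, 7.60 and 7.57 in the Hoxa9 arrays, against 7.75, 7.71, 7.84 and 8.06 in the eGFP arrays (difference -0.24). The 3 genes encode the same mature protein with different import sequences, and their ratios changed by 0.04 for Atp5g1 over Atp5g3 (exact permutation p = 0.8, and -0.02 with quantile normalization) and by -0.13 for Atp5g2 over Atp5g3 (exact permutation p = 0.2286).

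**Figure D3:**
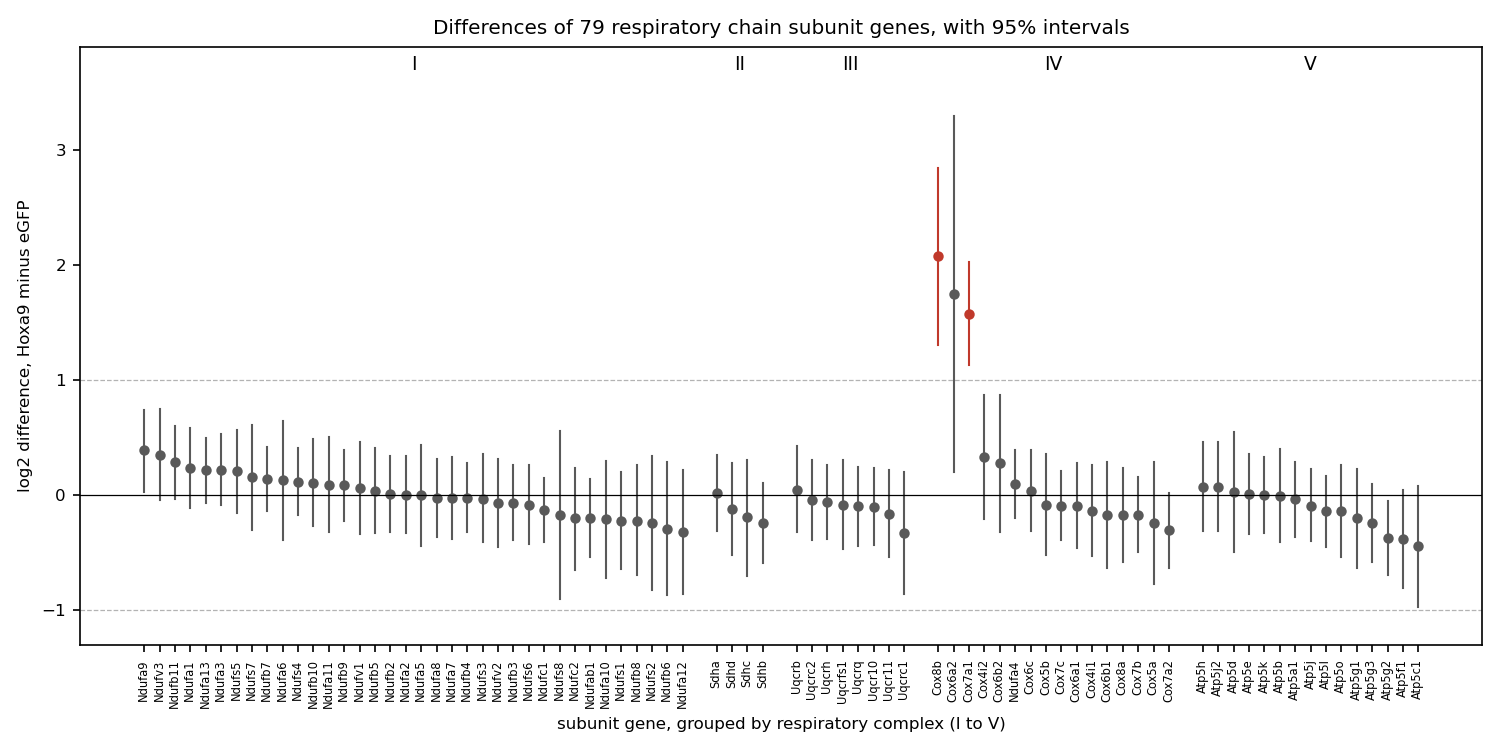
Log2 differences, Hoxa9 minus eGFP (vertical axis), of 79 subunit genes grouped by complex (horizontal axis), with 95% intervals from limma as bars and 2-fold as dashed lines. Called genes are in red. Apart from Cox8b (2.08), Cox6a2 (1.75) and Cox7a1 (1.58), all 76 points lie between -0.44 and 0.39 and all 76 intervals lie within 2-fold.

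Different probes of a gene mostly gave like differences. Of 30 member genes with several kept probes, the median range between probes was 0.13, and in 5 the probes differed in sign, none of them with a probe beyond 0.5. The exception in size was Ndufa3, a complex I subunit gene, whose dim probe gave 0.87 and whose bright probe, used here, gave 0.22. Of the 3 probes of Atp5k, 2 have mm9 positions on chromosome Y although the transcript lies on chromosome 5, and all 3 differed by 0.00 to -0.16.

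Among the genes around the chain, the mitochondrially encoded subunits, which are made inside the organelle, had no call either. Of 13 tested, 0 were called (limma; 2 at an unadjusted p under 0.05), with a median of -0.20 and a range of -0.60 to 0.22. Of the 13 differences 3 lay above 0 and 10 below, against 7 above and 6 below with quantile normalization, where the median was 0.01. ND5 was called lower with a trended prior, with array weights and without Hoxa9 replicate 4. The probes of COX2, COX3, ND3, ND4L, ATP6 and ATP8 have mm9 positions on chromosome 1, where nuclear copies of mitochondrial DNA lie, so the source of their signal is uncertain. The 75 mitochondrial ribosome genes had 0 called (limma; 7 at an unadjusted p under 0.05) and a median of -0.18. Of their differences 13 lay above 0 and 62 below, against 29 above and 46 below with quantile normalization. There were 2 higher under quantile normalization, 1 lower when replicate number was blocked and 3 lower with a trended prior. After normexp background correction 1 was higher and 1 lower.

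Assembly factors and chain genes outside the name rule had few calls, beside 15.1% called over all genes. Of 29 further assembly factor genes 1 was higher and 0 lower. It was Lyrm7, which helps to insert the iron-sulphur protein of complex III and differed by 0.60 (SE 0.14, adjusted p = 0.02604), a call kept in 8 of 19 alternatives and lost when replicate number was blocked (adjusted p = 0.05358) and after normexp background correction (0.35, adjusted p = 0.1027). Of 7 other chain genes, among them Cyc1 and Atpif1, 0 were called by limma and 1 had an unadjusted p under 0.05.

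Of 16 genes for electron carriers and ubiquinone synthesis 2 were higher and 2 lower (25% called, against 15.1% of all genes). Of the 4, Coq8a, Coq10a and Pdss1 belong to the ubiquinone genes and Cycs is a mobile carrier. Coq8a, a kinase-like protein needed for ubiquinone synthesis, read 0.32, 0.57, 1.23 and 1.43 in the Hoxa9 arrays, against -1.05, -1.11, -0.81 and -0.79 in the eGFP arrays (difference 1.83, SE 0.26, adjusted p = 0.002304). Coq10a, a ubiquinone-binding protein, rose by 1.22 (SE 0.15, adjusted p = 0.001336). Pdss1, a subunit of the enzyme that makes the ubiquinone tail, fell by 1.04 on the log2 scale (SE 0.15, adjusted p = 0.00217).

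Cycs, the somatic cytochrome c that carries electrons between complexes III and IV, fell by 0.78 on the log2 scale (adjusted p = 0.004974). It read 5.87, 5.69, 5.77 and 5.77 in the Hoxa9 arrays, against 6.73, 6.51, 6.42 and 6.56 in the eGFP arrays. The groups did not overlap, and the 3 slides gave differences of -0.85, -0.63 and -0.79. The gene was singled out from this list after its values were seen.

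Upstream of the chain, 4 of 27 genes of the citric acid cycle and of pyruvate dehydrogenase were higher and 3 lower. That is 25.9% called, against 15.1% of all genes, and with replicate number blocked 3 were higher and 3 lower. Pdk4 and Pdk2, kinases that switch pyruvate dehydrogenase off, rose by 2.44 (SE 0.20, adjusted p = 0.000186) and 1.35 (SE 0.16, adjusted p = 0.001105). Pdk4 read 3.85, 3.86, 4.15 and 4.63 in the Hoxa9 arrays, against 1.88, 1.62, 1.68 and 1.57 in the eGFP arrays. Pcx, pyruvate carboxylase, rose by 1.51 (SE 0.18, adjusted p = 0.0009351). The lists of fatty acid oxidation (1 higher and 0 lower of 14) and of inner membrane carriers (1 higher and 1 lower of 15) included Acadm (0.59, adjusted p = 0.04308), the carnitine carrier gene Slc25a20 (1.15, adjusted p = 0.016, and 0.06122 with replicate number blocked) and the ADP/ATP carrier gene Slc25a5 (-0.70, adjusted p = 0.02483). The count of higher fatty acid oxidation genes was 3 with replicate number blocked, 5 with quantile normalization and 0 with the slide as a block. Among the carriers, Ucp2 was called higher in place of Slc25a20 with replicate number blocked.

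Of 21 regulators of mitochondrial biogenesis and mitochondrial DNA, 1 was higher and 0 lower (4.76% called, against 15.1% of all genes). The called gene was Esrrb, an orphan nuclear receptor, which read 3.80, 3.64, 3.44 and 3.45 in the Hoxa9 arrays, against 1.58, 1.63, 0.50 and 0.62 in the eGFP arrays (difference 2.50, SE 0.29, adjusted p = 0.000917). The difference of Esrrb was 1.53 when the probes of a gene were averaged, and 3 of the 21 were then higher, Ppara and Ppargc1a being added. After normexp background correction 2 were higher and 2 lower. The list had 8 of 21 genes at an unadjusted p under 0.05, beside 7436 of 27109 over all genes.

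**Figure D4:**
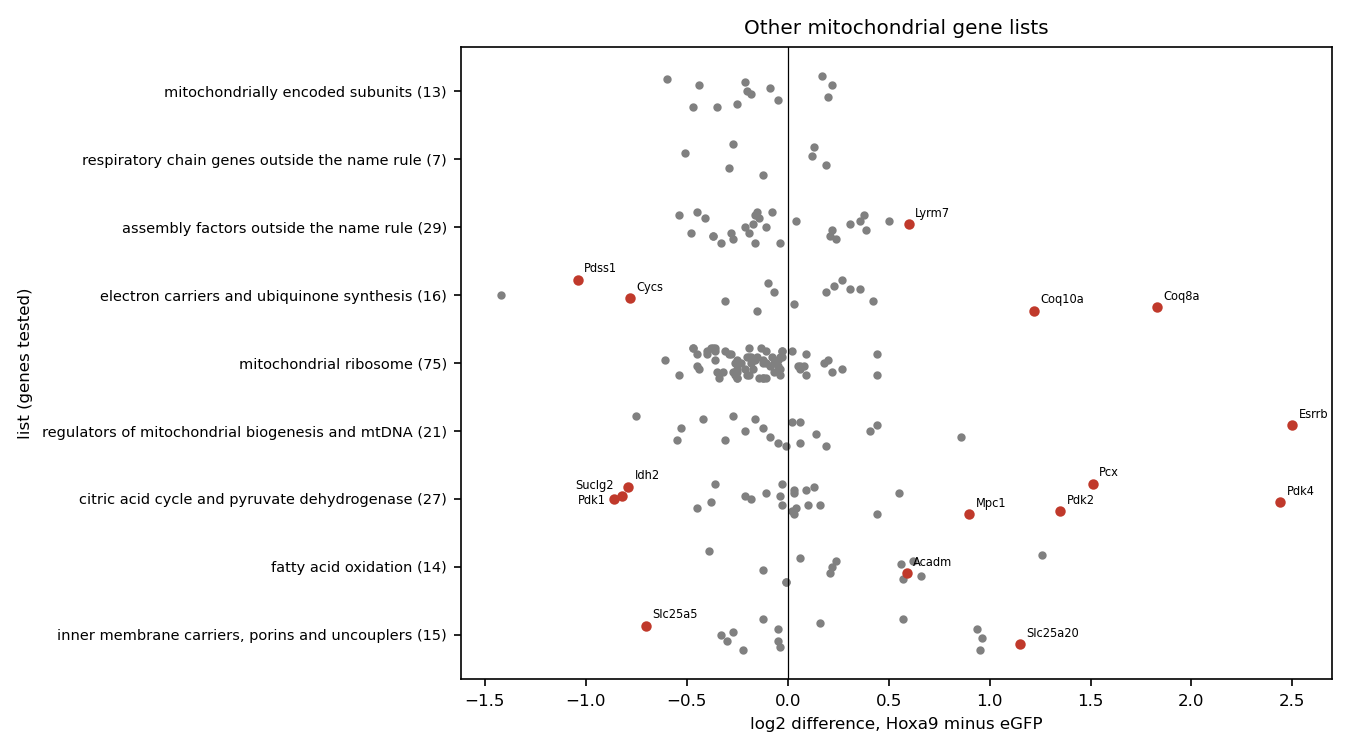
Log2 differences, Hoxa9 minus eGFP (horizontal axis), of genes in 9 other mitochondrial lists (vertical axis, genes tested in brackets). Each point is a gene and called genes are red and named. No point of the mitochondrially encoded subunits (-0.60 to 0.22) or of the mitochondrial ribosome (-0.61 to 0.44) is called, while the ubiquinone and pyruvate lists have called genes on both sides of 0.

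Markers of muscle differentiation are set here beside the muscle isoforms. Of 24 differentiation genes 3 were higher (Myh2, Myh4 and Tnnc1) and 0 lower, which is 12.5%, against 15.1% of all genes. With replicate number blocked 9 were higher and 3 lower (Myog, Myh3 and Myh7). Tnnc1 lost its call with the slide as a block (adjusted p = 0.0653). All 24 were well above background on all arrays, and their summed linear level, in multiples of the 75th percentile, was 1078.33 to 2569.48 in Hoxa9 cells and 781.72 to 1981.36 in eGFP cells. The brightest probes weigh most in such sums, which are given here and below only to set the groups beside each other. The centred mean of the 24 genes was -0.21, -0.15, 0.69 and 1.05 in Hoxa9 replicates 1 to 4, against -0.90, -1.04, 0.11 and 0.44 in eGFP replicates 1 to 4. As with Cox6a2, replicates 3 and 4 were high in both groups and the groups overlapped, while within the 4 same-numbered pairs the mean was higher with Hoxa9 by 0.69, 0.89, 0.58 and 0.61. Cox7a1 and Cox8b were highest in replicate 4 of both groups, as was the differentiation mean. Among the Hoxa9 arrays Cox7a1 was lowest in replicate 3, and Cox8b and the differentiation mean were lowest in replicate 1. Among the eGFP arrays both isoforms were lowest in replicate 1 and the mean in replicate 2. The part of differentiation in the isoform result was not tested. In these bulk samples fewer cells of a type and less RNA per cell cannot be told apart.

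The counts that follow stand beside 15.1% of all genes called, 7.71% as higher and 7.41% as lower. Genes of proliferating cells were also shifted, 8 of 10 being lower (7 with replicate number blocked) and 0 higher, which is 80%. Their centred mean was -0.72, -0.92, -0.23 and -1.13 in the Hoxa9 arrays, against 0.86, 0.82, 0.64 and 0.69 in the eGFP arrays, and their summed level was 44.97 to 63.00 in Hoxa9 cells and 110.42 to 130.96 in eGFP cells. Of 13 satellite cell and myoblast genes 7 were lower (6 with replicate number blocked) and 0 higher, which is 53.8%. Their summed level was 179.30 to 204.19 in Hoxa9 cells and 275.08 to 366.47 in eGFP cells. Among markers of other cells, 2 of 11 fibroblast genes were higher and 1 lower (27.3% called). Of 7 smooth muscle genes 1 was higher and 1 lower (28.6%), and 2 of 6 endothelial genes were higher (33.3%). Of 7 adipocyte genes 2 were higher (28.6%). Their summed level was 3.48 to 3.99 in Hoxa9 cells and 2.17 to 2.44 in eGFP cells. Of 8 immune genes 1 was lower (12.5%). With replicate number blocked, 2 fibroblast genes were lower, 2 smooth muscle genes higher, and 1 endothelial gene higher and 1 lower. Besides Ptprc, Tek, Tie1 and Emcn, the markers Lyz2, Plin1, Dpt, Lmod1 and Kcnj8 were not above the filter. Their part in the results was not tested either.

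**Figure D5:**
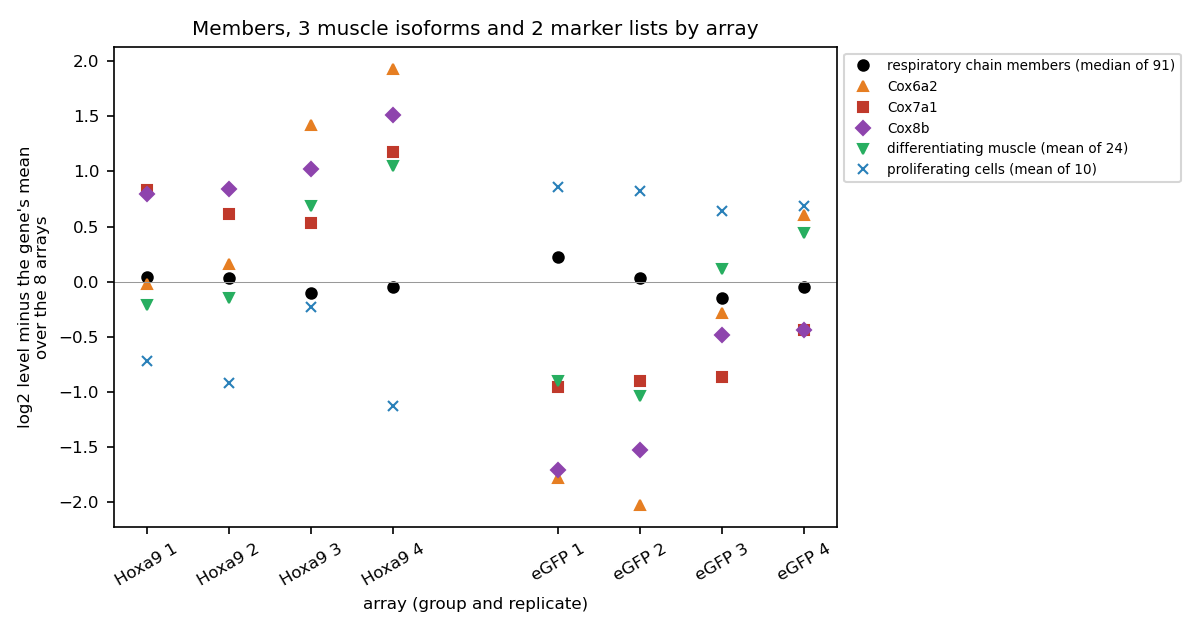
Log2 level minus the gene's mean over the 8 arrays (vertical axis) in each array (horizontal axis), for the median of the 91 members, for Cox6a2, Cox7a1 and Cox8b, and for the means of 24 differentiation and 10 proliferation genes. The members' median stays between -0.15 and 0.22, while the differentiation mean runs between -1.04 and 1.05.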

How the data were processed

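The intensity values are the scanner output of 8 arrays that the authors deposited, made with Agilent Feature Extraction 10.7.3.1 per the submitters' processing notes. A further deposited table of the authors had lost its decimal points in 86.1% to 87.3% of cells. Once they were put back, its column medians were -3.36 to -2.95, and at least 99.99% of its probes matched the log2 scanner signal to within 0.05 after a shift per array. It served as an alternative only.

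Each processed signal was taken to log2 and reduced by its array's 75th percentile. Control and outlier spots were dropped (180 probes lost), repeated spots averaged, and 40771 probes kept that stood well above background on at least 4 of 8 arrays. The kept probe of highest mean stood for its gene. A RefSeq table on GRCm38.p6 matched 27656 probes and renamed 1711, though members keep their array names here. The group term alone entered limma 3.58.1 (R 4.3.3, two-sided, Benjamini-Hochberg over 27109 genes at 0.05), which was first tested on simulated data. Intervals and p-values come from that fit unless an exact permutation test is named. The number of arrays limits the precision.

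All 3 slides carried both groups. Slide 1 held Hoxa9 replicate 4 with eGFP replicates 1 and 2, slide 2 held Hoxa9 replicates 1 and 2 with eGFP replicate 3, and slide 3 held Hoxa9 replicate 3 with eGFP replicate 4. Both groups use the same experiment numbers. Same-numbered arrays deviated together (r of 0.143, 0.228, 0.129 and 0.186, all above the limit of 0.1), although 2 unlike pairs reached 0.188 and 0.137. The reported fit and the 70 splits of the exact tests ignore this pairing. Results with replicate number blocked are given where they change a member's call or the calls of a list.

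Named are the called members, the 3 subunit genes of lowest p per complex, the isoform pairs, the Sdh genes, Hoxa9 and up to 3 genes of lowest adjusted p from each other list with a call. Named beyond this, after their values were seen, are Cycs, the differentiation genes named above, Ndufa3, Ndufa13, Atp5k, Ppara, Ppargc1a, Ucp2 and ND5. So are the markers that were not above the filter. Also named, without values, are Pax7, Myf5, Myod1, Cyc1, Atpif1 and the mitochondrially encoded genes with probes on chromosome 1. The brightest and dimmest subunits were not named, since levels of different probes are not comparable. Members and lists were chosen with earlier results of these data known. The alternatives (other scalings, background corrections and filters, averaging the probes of a gene, the authors' deposited values, slide or replicate blocks, a trended prior, array weights and leaving out each array) are covered in the closing section.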

Additional observations from a re-analysis of the deposited data

Results flagged for a closer look

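Of 92 gene and group combinations examined, 4 had 1 array standing apart from the other 3 of its group, by a gap large against the group's range. Chance marks about 1 in 20 such groups. Sdhd read 5.40 in Hoxa9 replicate 4, against 5.87 to 5.93 in the other Hoxa9 arrays. Atp5f1 read 5.03 in Hoxa9 replicate 1, against 4.67 to 4.72 in the others. Cox6a1 read 8.64 in Hoxa9 replicate 1, against 8.33 to 8.34 in the others. Atp5g1 read 7.24 in eGFP replicate 1, against 6.72 to 6.78 in the other eGFP arrays. None of these 4 genes passed the test with or without any one array.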

How the results depend on the processing

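Cox7a1 (difference 1.45 to 1.70) and Cox8b (1.86 to 2.28) passed the threshold in all 19 alternatives, and no called value changed sign. Quantile normalization raised the count of higher members to 5 (with Ndufa9 and Ndufa13), the count in complex I, assembly factors included, to 3 against 1, and the members' median to 0.12. After normexp background correction 1 member, Atp5g2, was lower, and 2 genes of complex I and 1 of complex V were called. The mean of a gene's probes gave 2 in complex I (Ndufa3 added), and a median shift gave 0. Leaving out 1 array in turn gave 2 to 3 higher members and 0 to 1 called in complex I, the call lost being Ndufaf3. With the replicate number as a block, 4 members were higher, Cox6a2 being added (adjusted p = 0.005329), Lyrm7 and Slc25a20 lost their calls (adjusted p 0.05358 and 0.06122), and no other call changed among the genes run through the alternatives (the members named with values, Hoxa9, the named genes of the other mitochondrial lists, Cycs, Myh2, Myh4 and Tnnc1). With the slide as a block the same 3 members were called. Called and at least 2-fold were 2 members. Cycs, Myh2 and Myh4 kept their calls in 19 of 19 alternatives and Tnnc1 in 11. Acadm kept its call in 10 of 19 alternatives, Slc25a5 in 11, Lyrm7 in 8 and Ndufaf3 in 12. The sign flips within pairs and the isoform ratios under quantile normalization were chosen after seeing the data. The causes were not tested.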
